A study of Mus musculus with 9 samples.

Results

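The genes described here are the subunits of the transcription factor NF-kB and the genes that restrain or tune it, measured in mouse thymocytes with and without the splicing factor SRSF1. They were chosen by gene symbol: Nfkb1, Nfkb2, Rela, Relb and Rel for the subunits, Nfkbia, Nfkbib and Nfkbie for the classical inhibitors, Tnfaip3 for the enzyme that damps the pathway and Bcl3 for an atypical family member. Each symbol belonged to 1 row of the count table, so 10 of 53715 genes were taken, and all 10 passed the filter on low counts.

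Bulk RNA-seq was made from thymocytes of C57BL/6 mice, 6 to 8 weeks old, sorted as TCRβ+ CD69+ CD24+ CD4+ CD8+, which are double-positive cells that have begun to signal through the T cell receptor. One group, SRSF1KO (2 libraries), has the genotype Srsf1fl/fl Lckcre/+, in which Cre under control of the T-lineage gene Lck removes floxed Srsf1 in developing T cells. The other, WT (3 libraries), is labelled as wild type, and the labels do not say whether those mice carry Cre or a floxed allele. The labels name no animal for a library, so the p-values measure the spread between these 5 samples, which may be technical, and 4 CLIP-seq samples of the series were not analysed here.

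NF-kB proteins act as pairs of 5 related subunits that share a DNA-binding Rel homology domain. In the canonical pathway IkB proteins hold Rela- and Rel-containing pairs in the cytoplasm until IKK, an upstream kinase, marks the IkB proteins for destruction. In the noncanonical pathway the kinase NIK triggers processing of the Nfkb2 precursor, which frees Relb-containing pairs. In the thymus NF-kB is known for its part in survival and maturation around selection.

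Library totals lay between 36026006 and 38985285 counts. Srsf1 stood at 96.9 to 122.7 CPM in WT and at 42.6 and 30.9 CPM in SRSF1KO, where CPM are counts divided by the TMM-adjusted library total and put on a fixed scale. Its log2 fold change was −1.55 ± 0.19 (SE, edgeR adjusted p = 0.0483, 1.9e-12 with DESeq2). In edgeR the adjusted p was 0.0515 with DESeq2's size factors and between 0.162 and 0.22 with any 1 WT library left out. The log2 fold change was −1.80 without SRSF1KO replicate 1 and −1.32 without SRSF1KO replicate 2. The T-lineage markers were high in every library, with Cd3e at 942 to 1040 CPM. The 15 summed to 14871 to 16401 CPM in WT and to 17814 and 15363 CPM in SRSF1KO. At an edgeR unadjusted p under 0.05, 1 was lower and 4 higher (8.45% and 5.9% of all tested genes). DESeq2 called 0 lower and 3 higher (3.87% and 2.34%). Rag1 stood at 513 to 663 CPM in WT against 1142 and 766 CPM in SRSF1KO. Cd4 was at 767 to 932 against 1229 and 1118 CPM. Of 13 tested myeloid and dendritic markers, 9 had a log2 fold change below 0 and 4 above. Over all 5 libraries Csf1r was at 3.05 to 10.7 CPM, Lyz2 at 46.9 to 55.1 CPM and Cd74 at 145 to 295 CPM. DESeq2 called 1 marker lower and 0 higher. It was Xcr1, at 0.753 to 1.57 CPM in WT against 0 and 0.028 CPM in SRSF1KO (adjusted p = 0.0137, 0.136 with edgeR). S100a9 went the other way, at 0.286 to 1.62 CPM in WT against 0.638 and 7.69 CPM in SRSF1KO. Levels were also summed over the tested markers of each type. Erythroid genes stood at 2.54 to 12.7 CPM in WT and at 99.1 and 22.9 CPM in SRSF1KO. Of these, 5 of 5 had a higher mean in SRSF1KO. Genes of natural killer and innate-like cells stood at 206 to 226 CPM in WT against 79.8 and 94.3 CPM in SRSF1KO. Of these 6 genes, 4 were lower and 2 higher. The WT sum was mostly Nkg7, at 166 to 187 CPM in WT against 24.97 and 55.2 CPM in SRSF1KO. Gzma went the other way, at 19.7 to 27.5 CPM in WT against 43.8 and 33.9 CPM in SRSF1KO. The lower sum thus rests on Nkg7 and does not show a fall of these markers in general. The B cell sums were 496 to 571 CPM in WT and 765 and 562 CPM in SRSF1KO, most of it Ighm, the myeloid and dendritic sums 327 to 521 and 381 and 275 CPM, and the thymic stroma sums 170 to 212 and 204 and 215 CPM, most of it Pecam1. Of the stromal markers, Krt5 and Foxn1 were at 0 to 12 counts and Epcam at 12.2 to 20.1 CPM, and Pdgfrb stood at 2.96 to 3.77 CPM in WT against 0.083 and 0.196 CPM in SRSF1KO (edgeR adjusted p = 0.066, 4.7e-06 with DESeq2). The single markers named here were picked after their values were seen. In bulk samples fewer cells of a type and less RNA per cell cannot be told apart, and the part of these cells in the values below was not tested.

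Among the 10 genes, Bcl3 showed the widest separation, at 8.61 to 13.6 CPM in WT against 2.61 and 3.39 CPM in SRSF1KO. Nfkbia and Tnfaip3 were far higher in WT replicate 2 than in any other library, and Rel was high in that library and in SRSF1KO replicate 2. Nfkbib was slightly and evenly below WT in both SRSF1KO libraries. For the other 5 members (Rela, Relb, Nfkb1, Nfkb2 and Nfkbie) the groups overlapped. No member passed the test over all genes (edgeR quasi-likelihood test, adjusted p under 0.05: 0 lower and 0 higher), in a comparison that called 0.213% of 17351 tested genes lower and 0.0519% higher (0.265% in either direction). At an unadjusted p under 0.05, 3 members were lower (Nfkbia, Nfkbib and Bcl3) and 0 higher, where 8.45% and 5.9% of all tested genes were. DESeq2 called 1 member lower, Bcl3, and 0 higher, with 3.87% and 2.34% of genes called, and limma-voom called 0 in either direction, with 0.357% and 0.121%. In the same 3 genes both SRSF1KO libraries lay below all WT libraries, which held for 17.8% of tested genes, and no member lay wholly above, which held for 15.2%. Below 0 were 8 members and above 0 were 2, beside 8788 and 8563 of all tested genes. The median log2 fold change (SRSF1KO minus WT) of the 10 genes was −0.19, beside −0.01 over all genes tested. Without SRSF1KO replicate 1 that median was 0.05, and without SRSF1KO replicate 2 it was −0.43.

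**Figure D1:**
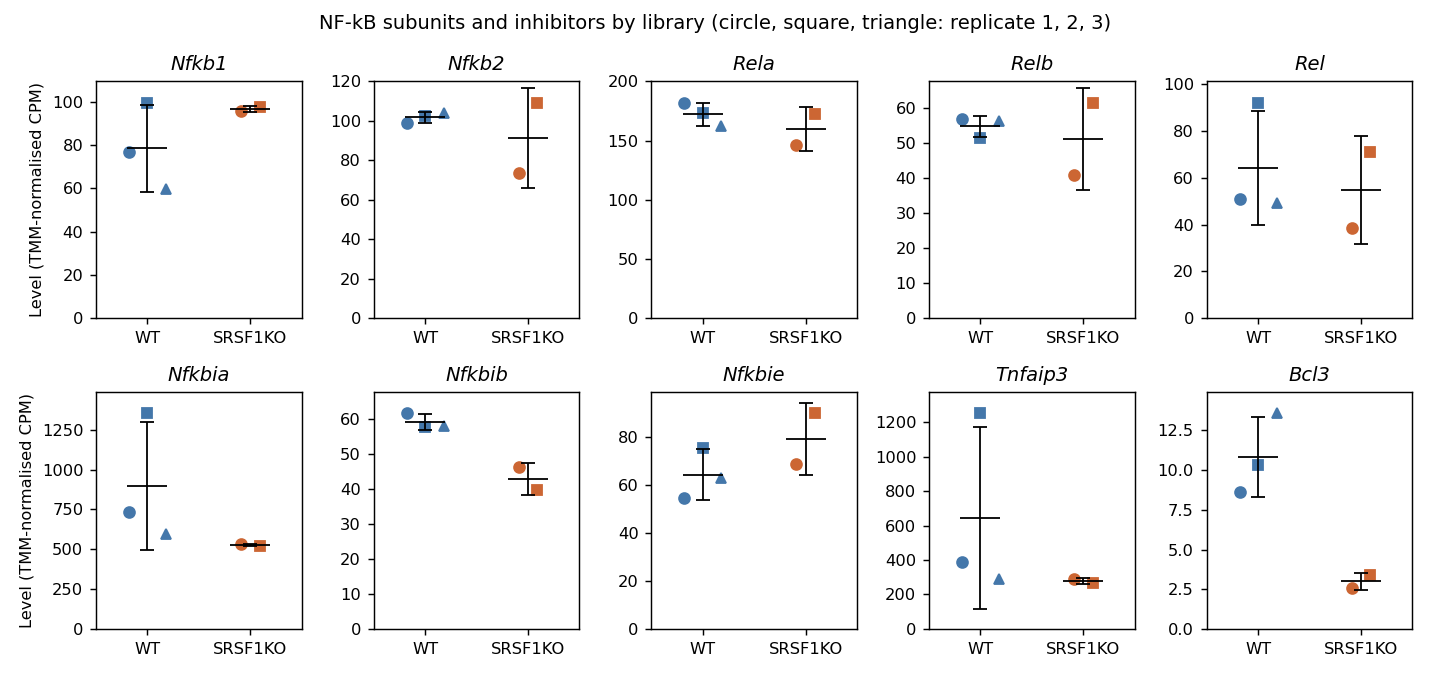
Levels of the 10 genes in TMM-normalised CPM (vertical axes, each from 0) in WT (blue, 3 libraries) and SRSF1KO (orange, 2 libraries). Points are libraries, horizontal bars are means and error bars are SD. Bcl3 lies at 8.61 to 13.6 CPM in WT and at 2.61 and 3.39 CPM in SRSF1KO, and WT replicate 2 (square) stands above the other libraries for Tnfaip3 and Nfkbia.

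**Figure D2:**
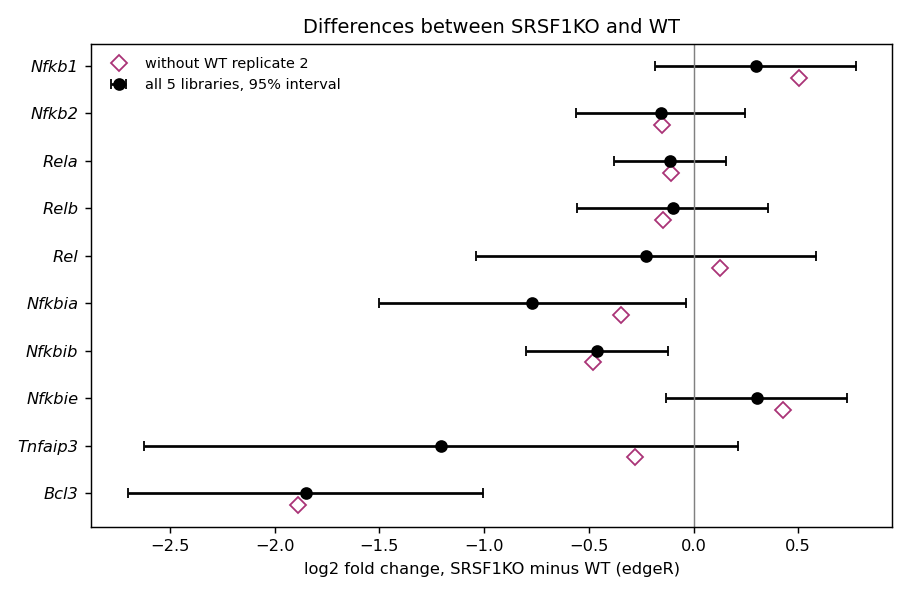
Log2 fold change of each gene from edgeR (black points, with 95% intervals not adjusted for the number of genes) and the same value without WT replicate 2 (open diamonds). Tnfaip3 moves from −1.20 to −0.28 and Nfkbia from −0.77 to −0.35, while Bcl3 stays near −1.85.

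The 3 subunits that carry a transactivation domain showed no separation of the groups. Rela (chromosome 19, 5637442 to 5648134, GRCm38), which encodes p65 of the canonical pathway, had levels of 181.8 (replicate 1), 173.1 (replicate 2) and 162.4 CPM (replicate 3) in WT, and of 146.3 (replicate 1) and 172.8 CPM (replicate 2) in SRSF1KO. The SRSF1KO libraries straddled the lowest WT value. Its log2 fold change was −0.11 ± 0.11 (SE, adjusted p = 0.744), with a 95% interval from −0.38 to 0.16. Of the 10 genes Rela had the narrowest interval.

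Rel (chromosome 11, 23736847 to 23770969) encodes c-Rel, a subunit of lymphoid cells. Its level was 51.0, 92.2 and 49.5 CPM in the WT replicates and 38.6 and 71.1 CPM in SRSF1KO. WT replicate 2 and SRSF1KO replicate 2 were the high libraries, so the spread within each group was wider than the difference between them. The log2 fold change was −0.23 ± 0.35 (SE, edgeR adjusted p = 0.850), and it turned to 0.13 without WT replicate 2 and to 0.15 without SRSF1KO replicate 1. Relb (chromosome 7, 19606217 to 19629438), the subunit of the noncanonical pathway, was at 57.0, 51.5 and 56.4 CPM in WT and at 40.9 and 61.7 CPM in SRSF1KO. The SRSF1KO libraries gave the lowest and the highest of the 5 values. Its log2 fold change was −0.10 ± 0.20 (SE, adjusted p = 0.891), and 0.17 without SRSF1KO replicate 1.

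The genes of the precursors p105 and p100, which are processed to the subunits p50 and p52 and act as inhibitors while unprocessed, likewise gave no call. Nfkb1 (chromosome 3, 135584655 to 135691969) stood at 76.6, 99.6 and 59.5 CPM in WT and at 95.5 and 97.4 CPM in SRSF1KO. Both SRSF1KO values fell between those of WT replicates 1 and 2. The log2 fold change was 0.30 ± 0.21 (SE, edgeR adjusted p = 0.584), with an interval from −0.18 to 0.78. Nfkb2 (chromosome 19, 46300994 to 46312400) was at 98.8, 102.7 and 104.2 CPM in WT, a narrow range, and at 73.4 and 109.3 CPM in SRSF1KO, below and above it. Its log2 fold change was −0.16 ± 0.17 (SE, adjusted p = 0.769), and 0.10 without SRSF1KO replicate 1. Rela, Rel, Relb and Nfkb2 were all at their lowest in SRSF1KO replicate 1, and Relb and Nfkb2 at their highest in SRSF1KO replicate 2. Nfkb2 overlaps Psd and the lncRNA gene 4833438C02Rik, and Nfkb1 the lncRNA gene Gm46827, and since no strand setting of the counting is given, reads of these genes cannot be told apart. Psd held 210 to 411 counts, against 2645 to 4013 for Nfkb2.

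The classical inhibitors differed among themselves. Nfkbia (chromosome 12, 55489409 to 55492647) encodes IkBα, which NF-kB itself induces and which thereby ends the response. It had 736, 1353 and 599 CPM in the WT replicates and 529.9 and 521 CPM in SRSF1KO. Both SRSF1KO libraries lay below all WT libraries, but WT replicate 3 was close to them and WT replicate 2 far above. The means were 896 ± 402 CPM (SD, n = 3) and 526 ± 6.14 CPM (SD, n = 2). On the log2 scale the groups differed by −0.77 ± 0.31 (SE, edgeR adjusted p = 0.328). Without WT replicate 2 the value was −0.35 (adjusted p = 0.371).

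Nfkbib (chromosome 7, 28758251 to 28766644), which encodes IkBβ, gave small but even differences. It stood at 61.6, 57.6 and 57.9 CPM in WT and at 46.2 and 39.6 CPM in SRSF1KO. The groups did not overlap, and the gap between them was larger than the spread within either. The log2 fold change of −0.46 ± 0.15 (SE) did not pass (edgeR adjusted p = 0.228), with an interval of the single gene from −0.80 to −0.12 and values between −0.57 and −0.34 when any 1 library was left out. Nfkbie (chromosome 17, 45555700 to 45563169), which encodes IkBε, pointed the other way. It stood at 54.4, 75.2 and 63.0 CPM in WT and at 68.4 and 89.7 CPM in SRSF1KO, where the lower SRSF1KO library lay inside the WT range. Its log2 fold change was 0.30 ± 0.18 (SE, adjusted p = 0.523). Nfkbib overlaps Ccer2, which had 0 counts in all 5 libraries.

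Tnfaip3 (chromosome 10, 19000910 to 19015410) encodes A20, a ubiquitin-editing enzyme that shuts off signalling to IKK and is itself a target of NF-kB. Its level was 386, 1252 and 290.5 CPM in the WT replicates and 292 and 266 CPM in SRSF1KO. The SRSF1KO libraries were level with WT replicate 3, and the WT mean of 643 ± 529.6 CPM (SD, n = 3) leaned on replicate 2. The log2 fold change of −1.20 ± 0.60 (SE, edgeR adjusted p = 0.421) shrank to −0.28 without that library (adjusted p = 0.562). Its interval, from −2.62 to 0.21, was the widest of the 10.

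Tnfaip3 was 3.70 times as high in WT replicate 2 as the mean of WT replicates 1 and 3, Nfkbia 2.03 times and Rel 1.84 times. These 3 of the 10 members were at 1.5 times or more, where 16.4% of all tested genes were. For the other 7 members the ratio was between 0.908 and 1.46. The same library was high for Cd69, an activation marker of the sort gate (1.98 times), and for stress and activation genes, both picked after the values were seen. Of 10 immediate early genes 8 had their highest WT value in replicate 2, against 34.6% of all tested genes, with a median ratio of 1.67. Between the groups, 6 of the 10 were lower and 1 higher in SRSF1KO at an edgeR unadjusted p under 0.05. Over all tested genes these shares were 8.45% and 5.9%. DESeq2 called 0 of the 10 lower and 1 higher (3.87% and 2.34% of all genes). The median log2 fold change of the 10 was −0.72. Junb stood at 454, 742 and 282.5 CPM in the WT replicates and Dusp1 at 453, 796 and 280.5 CPM, whereas Egr1 was at 372, 298 and 389 CPM and so lowest in replicate 2. The part of an activated state of that library in the Tnfaip3 and Nfkbia values was not tested.

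**Figure D3:**
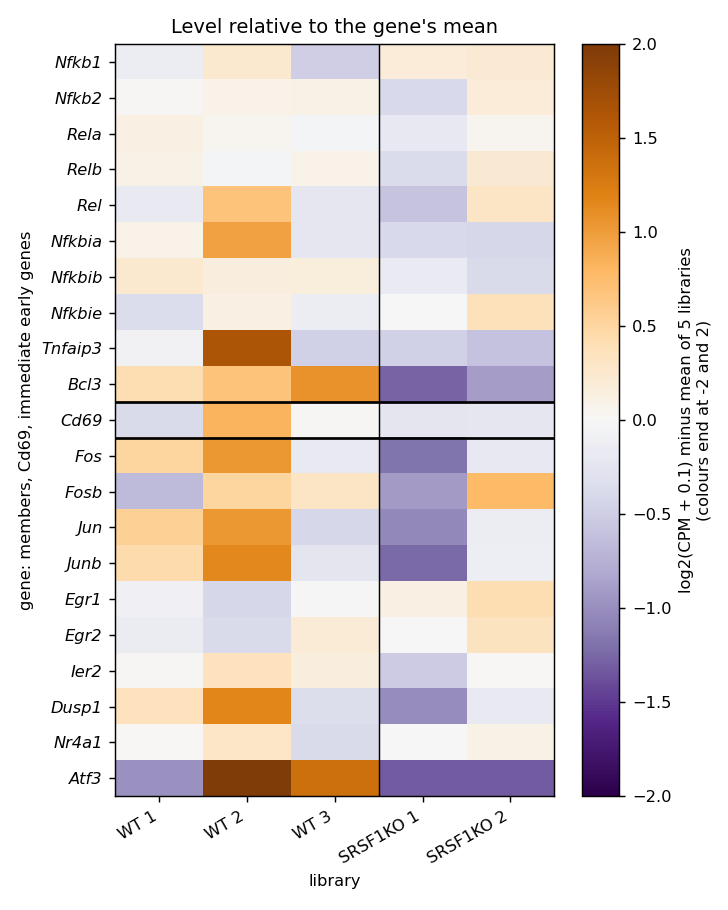
Level of each gene in each library as log2(CPM + 0.1) minus the mean over the 5 libraries (colour), for the 10 members, Cd69 and 10 immediate early genes. WT replicate 2 is high for Tnfaip3, Nfkbia, Rel, Cd69, Junb and Dusp1, and Bcl3 is low in both SRSF1KO libraries.

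Bcl3 (chromosome 7, 19808462 to 19822824) encodes an IkB-like nuclear protein that binds p50 or p52 pairs and can turn them into activators. Its counts were 326, 375 and 523 in the WT replicates and 94 and 121 in SRSF1KO, which gave 8.61, 10.3 and 13.6 CPM against 2.61 and 3.39 CPM. All WT values lay well above both SRSF1KO values, and WT replicate 2 did not stand out. The means of 10.8 ± 2.53 CPM (SD, n = 3) and 3.00 ± 0.55 CPM (SD, n = 2) correspond to a log2 fold change of −1.85 ± 0.36 (SE), the largest of the 10 genes in size. It did not pass in the edgeR fit (adjusted p = 0.101, unadjusted p = 0.0012). The call turned with the test and the filter: the adjusted p was 0.00037 with DESeq2, 0.0192 without a filter on low counts and 0.0336 with a minimum mean of 5 CPM. With any 1 library left out it was between 0.128 and 0.29, at log2 fold changes of −2.03 to −1.65. The overlapping lncRNA gene Gm16174 held 0 to 10 counts per library.

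The sequences upstream of these genes are shown because Nfkbia and Tnfaip3, 2 genes known as NF-kB targets, were high in the same library. RefSeq windows of 300 bases (GRCm38.p6, from 250 before to 50 after a start site) were found for 8 of the 10 members, not for Nfkb1 and Relb. They were searched on both strands for the kB motif, which reads GGG, any 2 bases, TT, any base and CC without gaps, and overlapping matches were counted. At least 1 match was present in 5 of the 8 genes (Nfkbia, Tnfaip3, Bcl3, Rel and Nfkb2), whereas 5.48% of the 27025 genes with a window had one, and 4.79% of the 32851 windows. The windows of Rela, Nfkbib and Nfkbie held no match to these letters. The 250 bases before the start sites of Nfkbia (chr12:55492648-55492897, minus strand) and Tnfaip3 (chr10:19015411-19015660, minus strand) follow 5′ to 3′ with matches in capitals.
Nfkbia: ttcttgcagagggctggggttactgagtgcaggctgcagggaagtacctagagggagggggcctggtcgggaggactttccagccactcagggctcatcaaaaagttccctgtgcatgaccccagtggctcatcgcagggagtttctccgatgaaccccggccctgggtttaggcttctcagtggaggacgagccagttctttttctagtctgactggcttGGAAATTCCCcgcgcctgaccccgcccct
Tnfaip3: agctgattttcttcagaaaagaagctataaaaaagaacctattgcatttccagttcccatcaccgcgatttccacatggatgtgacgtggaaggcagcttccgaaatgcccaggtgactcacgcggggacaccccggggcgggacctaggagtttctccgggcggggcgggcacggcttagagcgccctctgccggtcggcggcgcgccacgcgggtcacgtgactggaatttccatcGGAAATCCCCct
Each shows 1 match close to the start site, read from the opposite strand. For Bcl3 (chr7:19822734-19822763, minus strand), Rel (chr11:23771042-23771071, minus strand) and Nfkb2 (chr19:46304688-46304717, plus strand) a match is shown with 10 bases on either side.
Bcl3: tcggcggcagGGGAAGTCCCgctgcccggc
Rel: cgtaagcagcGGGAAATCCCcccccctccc
Nfkb2: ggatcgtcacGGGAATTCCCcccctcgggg
The Bcl3 match begins 2 bases after the start site used, and Rel holds a second match shifted by 1 base. The Nfkb2 match shown is its own reverse complement over the letters searched and was counted on both strands. Nfkb2 holds further matches, with 4 counted in its first window and 1 that lies in both windows 2 and 3, which overlap. A match was present both in genes with a high value in WT replicate 2 (Nfkbia, Tnfaip3, Rel) and in genes without one (Bcl3, Nfkb2). A match to these letters is a description and does not show binding.

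The balance between members was read within each library as the log2 ratio of 2 genes' counts, which does not depend on scaling between libraries, with gene lengths left in. Nfkbia over Rela, inhibitor over its main partner, was 2.02, 2.97 and 1.88 in WT and 1.86 and 1.59 in SRSF1KO, a difference in mean of −0.56. The SRSF1KO values lay below all WT values, by a small margin against WT replicate 3. Nfkb2 over Nfkb1 was 0.37, 0.04 and 0.81 in WT and −0.38 and 0.17 in SRSF1KO, a difference of −0.51 with overlapping groups. Rel over Rela was −1.83, −0.91 and −1.72 in WT and −1.92 and −1.28 in SRSF1KO, a difference of −0.12. Relb over Rela was −1.67, −1.75 and −1.53 against −1.84 and −1.49, a difference of −0.01, and its SRSF1KO values again gave both ends of the range. In exact two-sided permutation tests over 10 regroupings the p-values were 0.4, 0.3, 0.8 and 1, and 0.8, 0.8, 1 and 1 after Benjamini-Hochberg adjustment over the 4 ratios. The smallest p this design allows is 0.1.

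**Figure D4:**
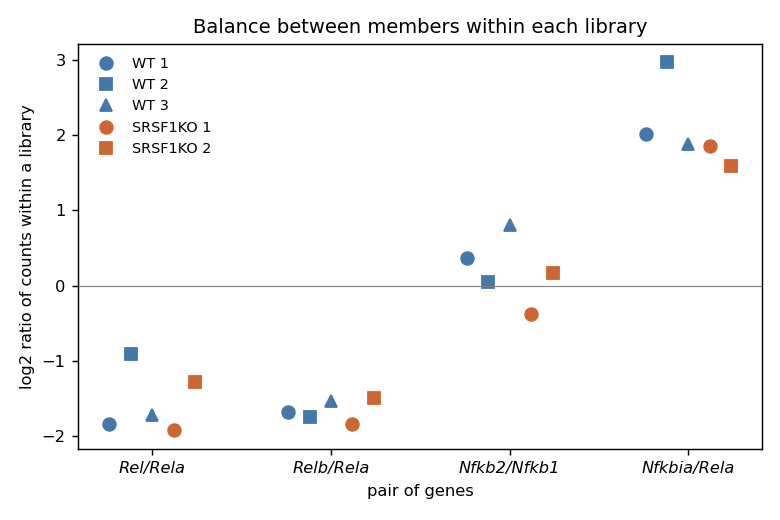
Log2 ratio of the counts of 2 genes within each library (vertical axis) for 4 pairs of members, with WT libraries in blue and SRSF1KO libraries in orange. Nfkbia over Rela is highest in WT replicate 2, at 2.97, and lies at 1.59 to 2.02 in the other 4 libraries.

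Upstream of NF-kB no gene passed in edgeR. Of 25 genes that carry signals to canonical NF-kB, among them the IKK subunits and their ubiquitin ligases, 0 were called in either direction and 2 were lower and 0 higher at an unadjusted p under 0.05, with a median log2 fold change of −0.08. DESeq2 called 1 lower and 0 higher. Over all tested genes 8.45% were lower and 5.9% higher at an unadjusted p under 0.05, and DESeq2 called 3.87% lower and 2.34% higher, so these counts lay near the background. Rbck1, which encodes HOIL-1 of the linear ubiquitin assembly complex, stood at 318, 306 and 338 CPM in WT and at 227 and 198 CPM in SRSF1KO (−0.59 ± 0.10, SE, edgeR adjusted p = 0.0798, 0.00016 with DESeq2). Ikbkg, the regulatory IKK subunit NEMO, was at 66.9, 67.7 and 67.9 CPM and at 53.7 and 51.7 CPM (−0.36 ± 0.13, adjusted p = 0.267). For both, the 2 SRSF1KO libraries lay below all WT libraries, which held for 3 of the 25 genes and for 17.8% of all tested genes.

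Of 12 genes of the noncanonical arm 11 were tested, with 0 called by edgeR, 3 lower and 0 higher at an unadjusted p under 0.05, and 1 lower and 0 higher with DESeq2, beside the same shares of all genes (8.45% and 5.9%, and 3.87% and 2.34% with DESeq2). Their median log2 fold change was 0.02, and −1.07 without SRSF1KO replicate 2. It was −0.25 at a minimum mean of 5 CPM, and its sign held in 6 of 13 alternatives. The lowest and highest log2 fold changes of the list were those of Cd40 (0.05 to 2.03 CPM) and Ltbr (0.03 to 2.43 CPM). Both had low levels and are named after their values were seen. Tnfrsf1b, the TNF receptor TNFR2, stood at 96.4, 117.8 and 134.7 CPM in WT and at 54.6 and 70.8 CPM in SRSF1KO (−0.89 ± 0.18, SE, edgeR adjusted p = 0.117, 0.00041 with DESeq2). Traf3, an adaptor that keeps NIK low, was at 45.8, 46.8 and 46.1 CPM and at 21.2 and 36.7 CPM (−0.67 ± 0.24, adjusted p = 0.278), and its log2 fold change was −0.33 without SRSF1KO replicate 1 and −1.11 without SRSF1KO replicate 2. Among 15 further brakes of the pathway 14 were tested, 0 were called by edgeR or DESeq2 and 2 were lower and 0 higher at an unadjusted p under 0.05 (8.45% and 5.9% of all genes). Their median was −0.09, and it was −0.39 without SRSF1KO replicate 2 and 0.027 without SRSF1KO replicate 1. Tnip1, which encodes a partner of A20, stood at 132.8, 122.4 and 131 CPM in WT and at 96.6 and 109 CPM in SRSF1KO (−0.32 ± 0.11, adjusted p = 0.261). Nfkbid, which encodes the atypical IkB protein IkBNS, was at 103.8, 106.7 and 111.7 CPM and at 80.7 and 93.7 CPM (−0.30 ± 0.12, adjusted p = 0.313).

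Among known target genes of NF-kB, 29 of those tested had a log2 fold change below 0 and 5 above. Over all 17351 tested genes, 8788 were below 0 and 8563 above. Of 40 known targets 34 were tested, the other 6 (Ccl3, Il2, Il6, Csf2, Cd80 and Ptgs2) having at most 28 counts in any library. The tested targets include genes at low levels, which weigh as much as others in the counts of signs. The lowest log2 fold change of the list was that of Tnfaip2 (0 to 0.66 CPM) and the highest that of Il1b (0 to 2.89 CPM). Both are named after their values were seen. B2m and H2-K1 were lower in edgeR (log2 fold changes −0.81 ± 0.11 and −1.33 ± 0.16, SE, adjusted p = 0.0483 for both) and 0 genes were higher. Both calls held with DESeq2 (adjusted p = 2.0e-08 for B2m and 1.8e-14 for H2-K1) and limma-voom (0.0148 and 0.0091). In edgeR they held without a filter on low counts (2.9e-05 and 7.0e-07) and at a minimum mean of 5 CPM (0.0039 and 0.00099). Upper-quartile scaling gave 0.0496 for both. Both calls were lost in edgeR with DESeq2's size factors (adjusted p = 0.0515 for both) and with a term for the sex pattern (0.105 and 0.073). Both were also lost without any 1 WT library (0.169 to 0.223 in edgeR). The B2m call was also lost without SRSF1KO replicate 1 (edgeR adjusted p = 0.143). At an unadjusted p under 0.05, 14 were lower and 1 higher, where 8.45% and 5.9% of all tested genes were, and DESeq2 called 10 lower and 0 higher, where it called 3.87% and 2.34% of all genes. The median log2 fold change was −0.64, beside −0.01 over all genes tested. It was −0.94 without SRSF1KO replicate 2 and −0.53 without WT replicate 2. For the 10 immediate early genes described above, the median with all libraries was −0.72. B2m and H2-K1 are MHC class I genes that interferon also induces. With these, Tap1, Psmb9 and Irf1 left out, a choice made after the values were seen, 29 genes had a median of −0.56. Without SRSF1KO replicate 2 it was −0.99, and without WT replicate 2 it was −0.45. No further interferon-induced genes were sought, so the 29 may still hold some. Of the 29, 0 were called by edgeR. At an unadjusted p under 0.05, 9 were lower and 1 higher (8.45% and 5.9% of all genes). DESeq2 called 5 lower and 0 higher (3.87% and 2.34%).

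Among the remaining targets, the following were picked after their values were seen. Traf1, a signalling adaptor, stood at 139.0, 107.8 and 92.3 CPM in WT and at 40.3 and 54.8 CPM in SRSF1KO (−1.25 ± 0.22, SE, edgeR adjusted p = 0.0746, 2.1e-06 with DESeq2). Irf4, a transcription factor that follows receptor signal strength, was at 16.3, 23.1 and 11.7 CPM and at 5.24 and 4.50 CPM (−1.80 ± 0.36, adjusted p = 0.11, 0.00017 with DESeq2). Tnf stood at 9.45, 18.5 and 12.2 CPM and at 5.52 and 5.96 CPM (−1.22 ± 0.36, adjusted p = 0.207, 0.0369 with DESeq2). For all 3, both SRSF1KO libraries lay below all WT libraries, which held for 16 of the 34 tested targets and 17.8% of all tested genes. In 2 of the 34 both lay above all WT libraries, beside 15.2% of all tested genes. Bcl2l1, the survival gene that encodes Bcl-xL, had both SRSF1KO libraries above WT, at 219, 265 and 238.5 CPM against 319 and 271 CPM (0.29 ± 0.12, adjusted p = 0.333). Gadd45b followed WT replicate 2, at 28.2, 72.8 and 28.7 CPM against 18.6 and 29.5 CPM (−0.85 ± 0.45, adjusted p = 0.453).

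**Figure D5:**
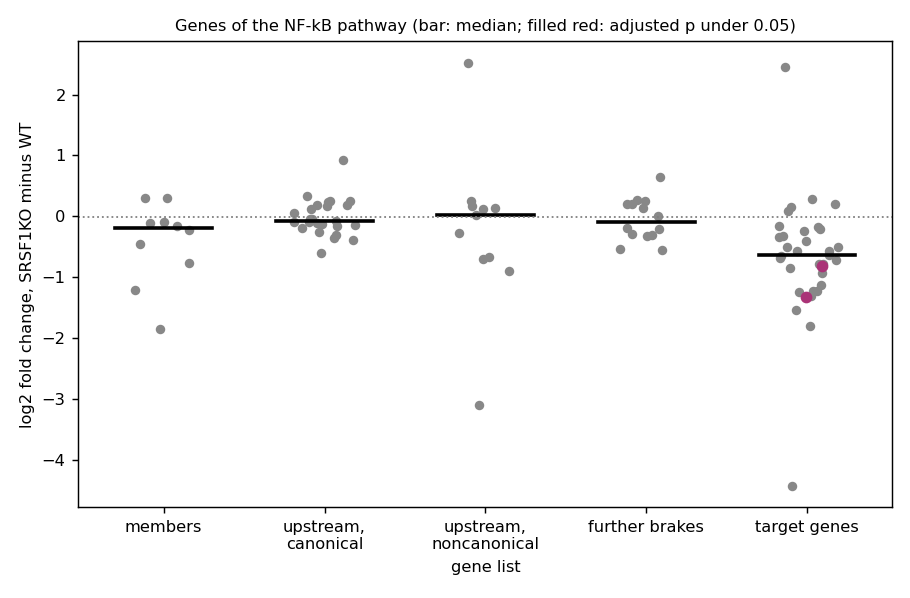
Log2 fold change of each tested gene (points, spread sideways for sight only) in the members and 4 lists of pathway genes, with medians as bars and the median of all genes as a dotted line. Red points passed in edgeR (B2m and H2-K1), and the target genes have a median of −0.64.

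The libraries also differed in sex-linked transcripts, with 1 library of the male pattern in each group (WT replicate 2 and SRSF1KO replicate 1), so the WT library that stood apart was also the only male one. Between the male-pattern libraries the log2 difference was −2.10 for Tnfaip3, −1.35 for Nfkbia and −1.26 for Rel. Between the female-pattern libraries (1 SRSF1KO, 2 WT) it was −0.33, −0.35 and 0.50. Bcl3 differed by −1.98 and −1.68, and Nfkbib by −0.32 and −0.59, so these genes, like Tnfaip3 and Nfkbia, had the same direction within both patterns. Nfkb1 differed by −0.06 and 0.53, Nfkbie by −0.14 and 0.62, Relb by −0.33 and 0.12, Nfkb2 by −0.48 and 0.11, and Rela by −0.24 and 0.01. With 1 or 2 libraries per group these within-pattern values have no test.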

How the data were processed

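Per the labels' protocols, RNA was purified with a column kit and Smart-seq2 libraries, which amplify full-length cDNA, were made. The authors deposited unnormalised read counts, in 1 table of 53715 versioned Ensembl IDs. The submitters' processing notes list HTSeq 0.6.1, DESeq2 1.20.0 and the build mm10 among other tools, with no roles. For RNA-seq the aligner, annotation and the strand setting were not given in the sources used here. IDs were matched to symbols in a names table (53620 matched). Coordinates and promoter windows are those of RefSeq on GRCm38.p6, the assembly behind mm10. Exon lengths were not used, so levels are not compared between genes.

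Differential expression was tested over all genes with the edgeR 4.0.16 quasi-likelihood test (R 4.3.3; TMM scaling, filterByExpr, robust fit, group as the only term), which tested 17351 genes, with Benjamini-Hochberg adjustment and calls at an adjusted p under 0.05. Tests were two-sided, and standard errors and 95% intervals were derived from the F statistic. The fit was checked on counts drawn from a model with known changes. Depth was even, and the common biological coefficient of variation was 0.494. Every pair of libraries differed by more than sampling noise (lowest chi-square per degree of freedom 40.1). Alternatives were other scalings and filters, DESeq2 1.42.0, limma-voom (limma 3.58.1), the replicate number as a block, each library left out, and, added after seeing the data, a term for the sex pattern.

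The members and gene lists were chosen with earlier results of these data known. Named by rule were Srsf1, all members and, from each pathway list, up to 4 called genes with the largest change or, with none called, the 2 with the smallest p. Other genes are marked in the text as chosen after their values were seen. Some genes of the lists are not reported here by name.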

Additional observations from a re-analysis of the deposited data

How the results depend on the processing

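The number of calls over all genes depended on the processing. Against 37 lower and 9 higher genes, scaling by DESeq2's size factors gave 7 and 3, no filter on low counts 346 and 198, a minimum mean of 5 CPM 233 and 143, DESeq2 633 and 383, and limma-voom 62 and 21. A term for the sex pattern gave 5 and 0, with 2269 genes at an unadjusted p under 0.05. Leaving out 1 library gave between 0 and 67 lower and between 0 and 21 higher genes, with 0 in both directions without WT replicate 1, 2 or 3 (1903, 2005 and 2079 at an unadjusted p under 0.05). Of the members, 1 was called lower (Bcl3) with DESeq2, without the filter and at a minimum mean of 5 CPM, and 0 in the other alternatives. The labels give the groups the replicate numbers 1 and 2 in common but no shared animal or day. The deviations of same-numbered libraries from their group means correlated at −0.02 and 0.03. WT replicate 3, which has no partner, gave 0.06 and −0.06. The deviations of 2 SRSF1KO libraries mirror each other, so these values cannot show whether the numbers mark a pairing. With the replicate number as a block edgeR called 0 genes lower and 0 higher, with 1640 at an unadjusted p under 0.05.

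The log2 fold changes of Bcl3, Nfkbia, Nfkbib, Tnfaip3, Nfkb1 and Nfkbie kept their sign in all 13 alternatives. With 1 library left out the others changed sign: Rel ranged from −0.72 to 0.15 (0.13 without WT replicate 2), Nfkb2 from −0.45 to 0.10, Rela from −0.22 to 0.0045 and Relb from −0.41 to 0.17, the positive ends without SRSF1KO replicate 1. The difference in the log2 ratio of Rel over Rela ranged from −0.44 to 0.20 (0.17 without WT replicate 2), and that of Relb over Rela from −0.19 to 0.16 (0.048 without WT replicate 3). The ratio of Nfkb2 over Nfkb1 ranged from −0.79 to −0.24 and that of Nfkbia over Rela from −0.77 to −0.23. The cause of these changes was not tested. Bcl3 rests on 94 to 523 counts per library, and the other members had over 1000 in every library. B2m and H2-K1 had an adjusted p of 0.314 with the replicate block in edgeR.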
